A study of Mus musculus with 9 samples.

Results

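The interferon-inducible GTPases of the GBP and IRG families were followed by RiboSeq in mouse macrophages. The 10 genes, 5 GBP genes (Gbp2, Gbp3, Gbp5, Gbp7, Gbp9) and 5 IRG genes (Irgm1, Irgm2, Igtp, Iigp1, Ifi47), were taken by symbol from a table of 16921 gene identifiers, and they were chosen with earlier results of these data in view, so that their differences between conditions are a description and not a test. Iigp1 was not analysed here. Of the 9 genes with values, 8 had a mean level of at least 10 and are called the measured genes below, and Gbp9 lay under that limit. RiboSeq counts ribosome-protected fragments (footprints) per gene, and a change in footprints can come from the amount of an mRNA or from its translation. All cells were immortalized bone marrow-derived macrophages (BMDMs) that lacked TTP and had been transformed with the oncogenes hcmyc and hRasG12V. They carried a tet-inducible vector for GFP, for GFP–TTP or for GFP–TTP-AA. TTP, the product of Zfp36, is an RNA-binding protein that directs mRNAs with AU-rich elements to decay, and TTP-AA lacks the serines through which the kinase MK2 inactivates TTP. All 9 libraries, 3 per condition, came from cells that received doxycycline (1 µg/ml) for 6 h and LPS (1 µg/ml) for 1 h. Cells without LPS and cells with their own TTP were not analysed here. Each condition was a separately transduced cell population, so that the transgene and the population cannot be told apart. Nothing in the labels says that the replicates were separate cultures.

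GBPs are large GTPases that coat the vacuoles of intracellular microbes and, once in contact with bacterial surfaces, help to expose LPS to the cytosolic sensor caspase-4. IRGs are smaller GTPases of the same superfamily. The regulators Irgm1, Irgm2 and Igtp sit on host membranes and hold back the effector IRGs, such as Ifi47 and Iigp1, which assemble on pathogen vacuoles. In macrophages both families are induced by interferon-γ and by the interferon-β that LPS elicits.

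The values deposited as normalised counts were found to be fitted values of the authors' DESeq2 model, a condition term plus a replicate-number term per gene on the log2 scale. After both terms a residual SD of 1.48e-15 was left. They therefore hold no scatter between replicates, the order of the 3 conditions is the same in each replicate number by construction, and the error of a difference is the standard error (SE) of the authors' shrunken fit. Their sum, the only trace of depth, in units of 1e+06, ranged from 2.57 to 12.8 over the libraries. Zfp36, which marks the transgene, had a level of 458 in cells with GFP alone, of 924 with GFP–TTP and of 1530 with the mutant. The 458 is a value of the shrunken fit and not an observed count, and shrinkage draws the conditions towards each other. It therefore does not show that the TTP-deficient GFP-only cells gave footprints on this gene, which was not tested. Of 10 macrophage marker symbols 9 had values, led by Lyz2 at 63829 in GFP-only cells. The markers, mostly Lyz2, summed to 88590 to 107266 in GFP-only, 71623 to 85575 in GFP–TTP and 99684 to 121730 in GFP–TTP-AA libraries. Lyz2, Emr1, Cd68 and Csf1r had this order of conditions, which was that of Gbp2 and Gbp3. Itgam, Cd14, Ptprc, Fcgr1 and Mertk did not, and Ptprc was highest in GFP–TTP (4106) and lowest in GFP–TTP-AA cells (3023). Of 14 markers of other cell types 6 had values, and without S100a8 their sum was 3.00 to 3.48 in all 9 libraries. S100a8, a neutrophil and myeloid gene, had a level of 26.9 with GFP alone, 25.5 with GFP–TTP and 55.7 with the mutant, highest where Gbp2 and Gbp3 were highest. The part of these markers in the differences of the GTPase genes was not tested.

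The promoters are shown because interferon acts on these genes through short elements close to the start of transcription. RefSeq promoters (GRCm38.p6, 250 bases before to 50 bases after the RefSeq start) were matched by symbol to 7 of the 9 genes. The gene named Gbp5, whose identity is uncertain, was left out. Gbp3 had 2 such windows, and the second held no match to any element sought. A gene was counted if any of its windows matched, whereas the background shares are per promoter. The letters GAAA repeated after any 2 bases, on either strand, the core of the interferon-stimulated response element bound by IRF transcription factors, were found in 6 of the 7, against 3.44% of 32851 promoters of the same length. In the stretches below the match is in capitals, and a pair of TTTC is the same element read on the other strand.
Gbp2, chr3:142620594-142620623, plus strand: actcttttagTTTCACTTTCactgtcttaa
Gbp3, chr3:142559989-142560018, plus strand: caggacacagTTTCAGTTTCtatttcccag
Gbp7, chr3:142530273-142530302, plus strand: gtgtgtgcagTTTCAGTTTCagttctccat
Irgm1, chr11:48871431-48871460, minus strand: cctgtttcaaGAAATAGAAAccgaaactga
Irgm2, chr11:58214903-58214932, plus strand: tccaggaactGAAACTGAAAgctgttcggg
Igtp, chr11:58199512-58199541, plus strand: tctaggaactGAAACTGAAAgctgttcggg
Counted from the RefSeq start, the matches began 59 bases upstream in Gbp2, 45 in Gbp3 (first window), 53 in Gbp7, 30 in Irgm1, 64 in Irgm2 and 34 in Igtp. The first window of Gbp3 and that of Irgm1 each held a second, overlapping match. GENCODE vM21, from which the gene positions below are taken, begins Gbp2, Irgm1 and Irgm2 further upstream than RefSeq, so that these matches lie inside the GENCODE gene models. The windows of Igtp and Irgm2 were identical at 29 of 30 bases. Ifi47 held no match in its window. The letters TTCNNNGAA, the palindrome of the gamma-activated site, were found in 3 of the 7 genes (Gbp7, Irgm2 and Igtp) against 8.30% of all promoters. In Irgm2 and Igtp they overlap the element above. They are shown for the same reason, capitals as before.
Gbp7, chr3:142530220-142530248, plus strand: tccgttttctTTCCAGGAAaagcagaagc
Irgm2, chr11:58214892-58214920, plus strand: aactagccatTTCCAGGAActgaaactga
Igtp, chr11:58199501-58199529, plus strand: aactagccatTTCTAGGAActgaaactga
The NF-κB consensus, searched on the strand of the gene only, was found in 0 of the 7, against 5.89% of all promoters. Matches to it on the other strand were not sought. Matches are letters in a window, and whether a factor bound there was not measured. The GAAA pair was thus found in promoters of both families, in 3 GBP and 3 IRG genes.

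Gbp2 and Gbp3 had the largest differences of the family between GFP–TTP-AA and GFP–TTP. Both were lowest in GFP–TTP and highest in GFP–TTP-AA cells. Levels are fitted values divided by the size factor of the library, and the level of a condition is the geometric mean of its 3 libraries.

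Gbp2 (chr3:142620602-142638008, plus strand), a GBP that coats vacuoles and bacteria, had fitted values of 31.8, 42.0 and 95.8 in GFP-only replicates 1, 2 and 3. They were 23.9, 31.4 and 71.5 in GFP–TTP and 67.0, 87.9 and 201 in GFP–TTP-AA. Replicate 3 was highest in every condition, and because of it the ranges of the 3 conditions overlapped. The levels of Gbp2 were 50.4 with GFP alone, 37.7 with GFP–TTP and 106 with the mutant. The log2 difference was 1.49 (SE 0.24) between GFP–TTP-AA and GFP–TTP, a fold of 2.81, and 1.07 (SE 0.24) between GFP–TTP-AA and GFP-only cells. For GFP–TTP against GFP-only it was -0.42 (SE 0.24), and the 95% interval of -0.89 to 0.05 held 0. GFP-only and GFP–TTP are thus neighbours that do not differ beyond their error, and GFP–TTP-AA stood above both.

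Gbp3 (chr3:142560026-142573209, plus strand) had values of 47.5, 44.7 and 94.7 in GFP-only, 24.5, 23.0 and 48.6 in GFP–TTP, and 71.9, 67.2 and 143 in GFP–TTP-AA libraries. Replicate 3 was again highest. The values of GFP–TTP and GFP–TTP-AA did not overlap, but fitted values carry no replicate scatter. Levels of Gbp3 in the same order were 58.6, 30.1 and 88.3. The log2 difference was -0.96 (SE 0.24) for GFP–TTP against GFP-only, 0.59 (SE 0.24) for GFP–TTP-AA against GFP-only, and 1.55 (SE 0.24) for GFP–TTP-AA against GFP–TTP, a fold of 2.93. None of the 95% intervals held 0, the nearest being 0.13 to 1.06 for GFP–TTP-AA against GFP-only. Gbp3 was therefore the one GBP gene whose 3 intervals all left out 0, and these intervals are not adjusted for the number of genes. After adjustment over all genes, GFP–TTP-AA against GFP-only did not pass (adjusted p 0.17, Wald ratio). GFP–TTP against GFP-only passed, but not with the chromosome median subtracted.

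Gbp7 (chr3:142530342-142550149, plus strand), is linked to the assembly of the phagocyte NADPH oxidase. Its values were 22.2, 15.5 and 28.9 in GFP-only, 15.7, 10.9 and 20.3 in GFP–TTP, and 26.4, 18.3 and 34.2 in GFP–TTP-AA libraries. Here replicate 2 was lowest and replicate 3 highest, and all conditions overlapped. The log2 difference was 0.75 (SE 0.25) for GFP–TTP-AA against GFP–TTP, -0.50 (SE 0.25) for GFP–TTP against GFP-only and 0.24 (SE 0.25) for GFP–TTP-AA against GFP-only. The order of the conditions was that of Gbp2 and Gbp3.

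The gene named Gbp5 carries an identifier that GENCODE vM21 assigns to Gbp2b, at chr3:142594847-142619179 on the plus strand, next to Gbp2, and not to its own Gbp5. Gbp5 itself promotes NLRP3 inflammasome assembly, and whether the values belong to it or to Gbp2b cannot be told here. They ran from 9.43 to 11.1 in GFP-only, from 9.39 to 11.0 in GFP–TTP and from 10.4 to 12.2 in GFP–TTP-AA libraries, so that all conditions overlapped. The log2 difference was 0.14 (SE 0.12) for GFP–TTP-AA against GFP-only and 0.15 (SE 0.12) against GFP–TTP. GFP–TTP against GFP-only was -0.01 and had no standard error. The small SE of this gene is no sign of precision, since shrinkage also lowers the SE of genes with little information, and the smallest SE of all, 0.065, belonged to a gene with a mean of 5.22. Gbp9 (chr5:105077630-105139539, minus strand) had values between 2.37 and 3.36 in the 9 libraries, below the limit of 10, and no standard error, and its gene model overlaps those of Gbp8 and Gbp4.

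**Figure D1:**
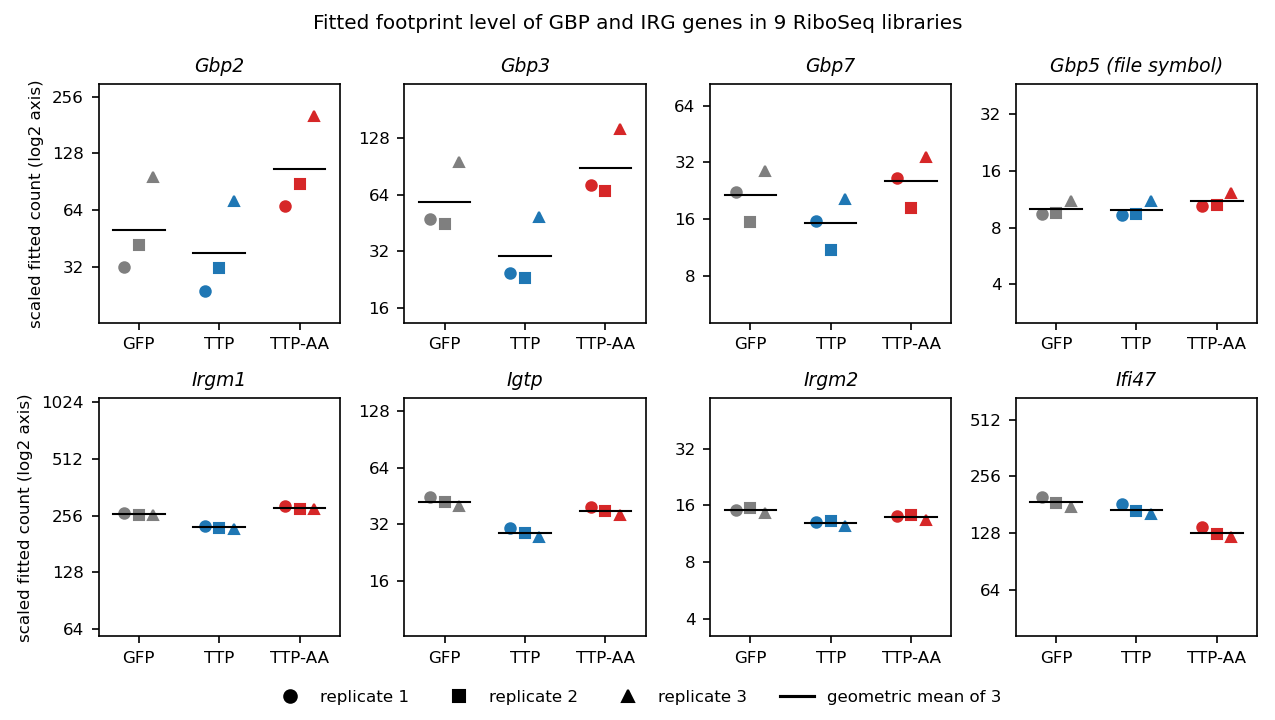
Fitted values of the 8 measured genes in the 9 libraries, divided by the size factor of the library, on log2 axes of equal span (symbols, replicate numbers; lines, geometric mean of 3). Replicate 3 is highest in each panel of the upper row, led by Gbp2 at 201 in GFP–TTP-AA, whereas in the lower row the 3 replicates of a condition lie close together.

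The IRG genes had smaller differences than Gbp2 and Gbp3 when GFP–TTP-AA was set against GFP–TTP, a contrast between genes that was not tested. In the other comparisons the sizes were mixed, as Igtp was further below GFP-only in GFP–TTP (-0.55) than Gbp2 (-0.42). Irgm1 (chr11:48861968-48871683, minus strand), a regulator needed for resistance to mycobacteria, had the highest level per coding length of the family. Its values were 265, 259 and 257 in GFP-only, 226, 220 and 218 in GFP–TTP, and 288, 279 and 278 in GFP–TTP-AA libraries. The conditions did not overlap, but fitted values carry no replicate scatter. The log2 differences were -0.23 (SE 0.18) for GFP–TTP against GFP-only, 0.11 (SE 0.18) for GFP–TTP-AA against GFP-only and 0.34 (SE 0.18) for GFP–TTP-AA against GFP–TTP, and every 95% interval held 0. The last reached 0.45, with an interval of 0.10 to 0.81, when the chromosome 11 median of -0.11 was subtracted.

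Igtp (chr11:58199556-58207591, plus strand), a regulator found on the endoplasmic reticulum, had values of 44.4, 42.3 and 40.1 in GFP-only, 30.5, 28.9 and 27.4 in GFP–TTP, and 39.8, 37.6 and 35.7 in GFP–TTP-AA libraries. It was lowest in GFP–TTP, with a log2 difference of -0.55 (SE 0.25) against GFP-only and a 95% interval of -1.03 to -0.06. GFP–TTP-AA was -0.17 (SE 0.25) from GFP-only and 0.38 (SE 0.25) from GFP–TTP, with intervals that held 0. Irgm2 (chr11:58199618-58222782, plus strand), a further regulator, had values of 15.2, 15.4 and 14.6 in GFP-only, 13.1, 13.2 and 12.4 in GFP–TTP, and 14.1, 14.2 and 13.4 in GFP–TTP-AA libraries. Its log2 differences of -0.22, -0.11 and 0.11 in the order used above each had an SE of 0.24.

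Ifi47 (chr11:49076587-49096974, plus strand), the effector, had an order of its own. Its values were 199, 184 and 177 in GFP-only, 182, 168 and 162 in GFP–TTP, and 138, 127 and 122 in GFP–TTP-AA libraries. The GFP–TTP-AA values lay below all others, with a log2 difference of -0.54 (SE 0.20, 95% interval -0.92 to -0.15) against GFP-only and -0.41 (SE 0.20, 95% interval -0.79 to -0.02) against GFP–TTP. GFP–TTP against GFP-only was -0.13 (SE 0.20). With the chromosome 11 median subtracted, the difference from GFP–TTP was -0.30 and its interval of -0.69 to 0.09 held 0. In fitted values, Ifi47 was the only one of the 8 measured genes that was lowest in GFP–TTP-AA cells.

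**Figure D2:**
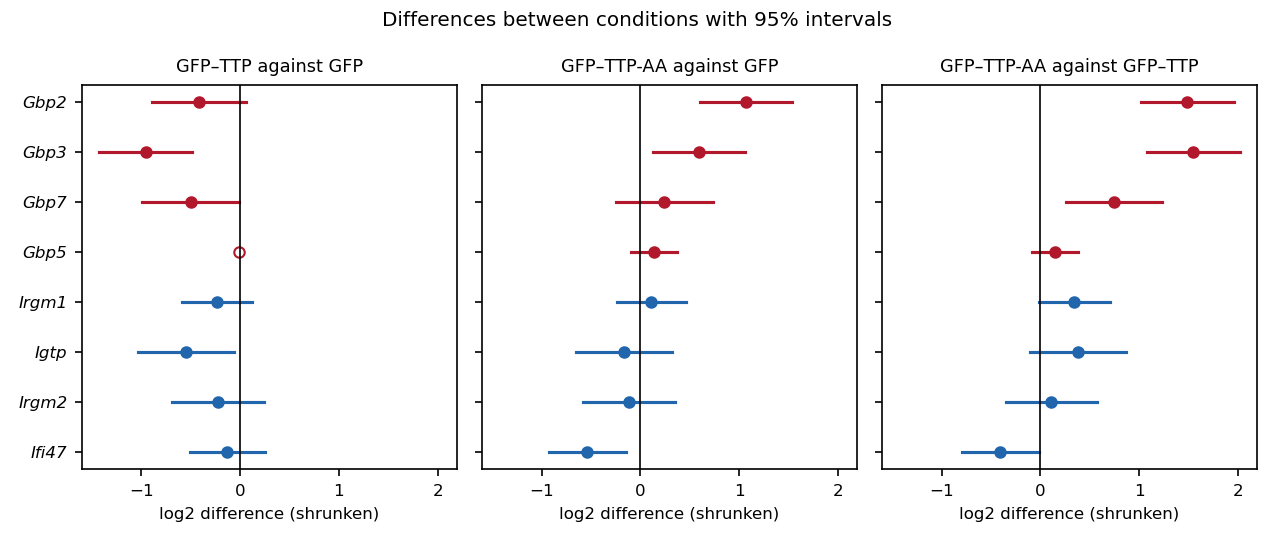
Log2 differences of the 8 measured genes in the 3 comparisons, with 95% intervals from the standard errors of the authors' shrunken fit (red, GBP; blue, IRG; open symbol, no standard error). In the right panel Gbp2 (1.49), Gbp3 (1.55) and Gbp7 (0.75) lie right of 0 with their whole interval, and Ifi47 (-0.41) lies left of it.

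For GFP–TTP against GFP-only the median was -0.33 over the 8 measured genes, against 0.00 for all 10099 genes kept. The gene named Gbp5, at -0.01, had no standard error in this comparison. An adjusted p below 0.05 (Wald ratio of the log2 difference to its SE, Benjamini-Hochberg over all genes) was reached by 1 member, Gbp3, and by 2.1% of all genes tested (0.815% higher, 1.29% lower). The chromosome 3 genes as a whole were low in this comparison, with a median of -0.18 over 475 genes, and with that median subtracted Gbp3 was at -0.78 and no longer passed. In GFP–TTP-AA against GFP-only, Gbp2 passed and the background was 3.02% (1.74% higher, 1.28% lower). The median there was 0.13 over the 8 measured genes, against 0.00 for all genes kept. In GFP–TTP-AA against GFP–TTP the 3 genes Gbp2, Gbp3 and Gbp7 passed, all higher, against a background of 10.3% (5.59% higher, 4.66% lower). With the chromosome median subtracted (0.08 in that comparison) Gbp7 was at 0.66 and did not pass. None of the 4 IRG genes passed in any comparison by this Wald ratio, whereas at an unadjusted p below 0.05 there was 1 in each, Igtp in the first and Ifi47 in the other two, where 11.3%, 14.2% and 22.1% of all genes tested were below that p. As the members were chosen on these contrasts, nothing is read from the counts. The 3 comparisons share libraries, the last being the difference of the others. By family, the median log2 difference of GFP–TTP-AA against GFP–TTP was 1.12 over 4 GBP genes and 0.23 over 4 IRG genes.

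Gbp2 and Gbp3 also had large replicate terms, which carry no error here. The authors' model names a library date, and the values fit a term per replicate number in its place, but no label ties a replicate to a date. No replicate ratio can differ between conditions in fitted values. Replicate 3 exceeded replicate 1 by 1.59 on the log2 scale for Gbp2, a fold of 3.00, the 6th highest of 10099 genes, for which the SD of this difference was 0.29. For Gbp3 the difference was 0.99, for Gbp7 0.37 and for the gene named Gbp5 0.23, within the SD of all genes. For the IRG genes it was -0.05 for Irgm1, -0.07 for Irgm2, -0.15 for Igtp and -0.17 for Ifi47. Other genes of the interferon response were also higher in replicate 3, among them Ifnb1, which encodes interferon-β, at 1.36, and Oasl1, an inhibitor of Irf7 translation, at 1.34. The replicate term of Gbp2 was larger than its largest difference between conditions, and the condition differences above are those with this term taken out.

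**Figure D3:**
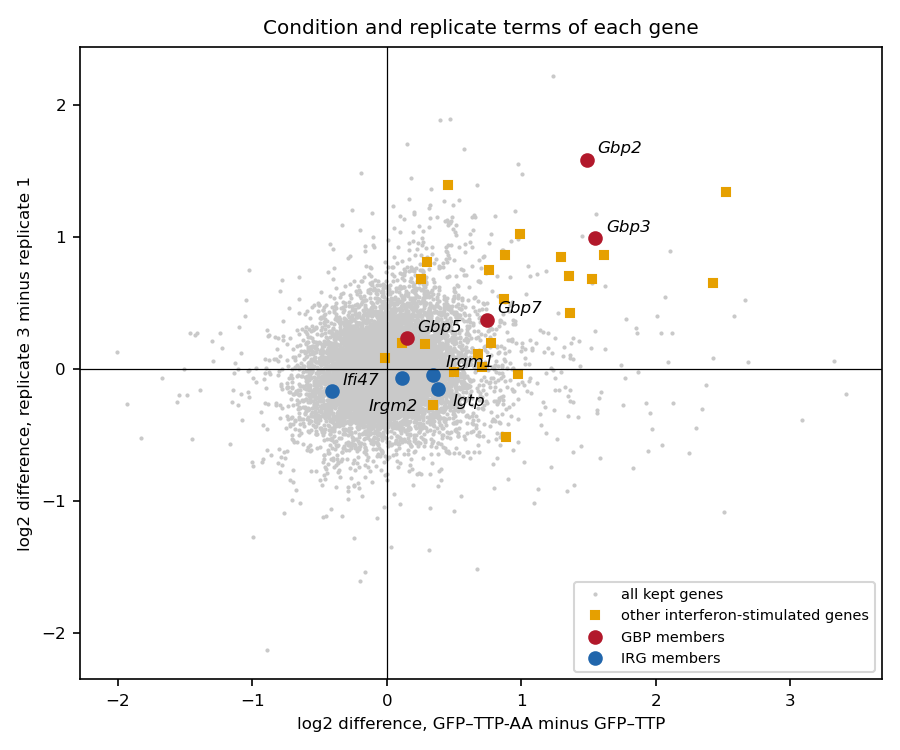
For each of the 10099 genes kept, the log2 difference of GFP–TTP-AA minus GFP–TTP (horizontal) and of replicate 3 minus replicate 1 (vertical), with GBP genes in red, IRG genes in blue and other interferon-stimulated genes as squares. Gbp2 and Gbp3 lie at the upper right (1.49 and 1.59 for Gbp2), and the 4 IRG genes lie close to the horizontal line.

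Levels of different genes were compared only per kb of coding length (GENCODE vM21). Over the 3 conditions the mean level per kb was 207 for Irgm1 and 129 for Ifi47, then 41.0 for Gbp2, 33.7 for Gbp3 and 28.6 for Igtp. It was 11.4 for Irgm2, 11.2 for Gbp7, 5.86 for the gene named Gbp5 and 1.56 for Gbp9. The IRG genes Irgm1 and Ifi47 thus led the family, and in GFP–TTP-AA cells the level per kb of Gbp2 was 59.9 against 102 for Ifi47, compared with 28.5 and 148 in GFP-only cells. Footprints on close paralogs can be split or shared, since reads were kept at up to 2 places. Of all stretches of 28 bases in the coding sequence, 8.51% of those of Gbp2 also occurred in another gene, as did 11.0% for Gbp3, 11.8% for Gbp7 and 43.0% for Gbp9. The share was 16.9% for Irgm2 and 16.3% for Igtp, which share with each other and whose gene models overlap on the same strand, 1.92% for Irgm1 and 0 for Ifi47. The Irgm2 and Igtp values are therefore uncertain in so far as the counting could divide such reads, and most stretches of Gbp2, Gbp3, Irgm1 and Ifi47 were their own.

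The 3′UTRs were searched because TTP binds AU-rich elements there. The pentamer ATTTA, read on the mRNA strand, occurred in 5 of 8 members (without the gene named Gbp5), namely Gbp3, Gbp7, Gbp9, Irgm2 and Ifi47, against 66.8% of 9849 genes kept. The heptamer TATTTAT, the preferred TTP site, which contains the pentamer, occurred in Gbp9 alone, against 27.9% of genes. Gbp2 (3′UTR of 515 bases), Irgm1 (556 bases) and Igtp (315 bases) held no ATTTA, and Gbp7 held 7 in a 3′UTR of 3575 bases. Both pentamers of Gbp3 and the one of Ifi47 are shown since these genes had opposite signs in GFP–TTP-AA against GFP–TTP, and a site of Gbp9 is added as one with the heptamer (ATTTA in capitals, GRCm38).
Gbp3, chr3:142572705-142572729, plus strand: ctgggaaggaATTTAtaaaatccag
Gbp3, chr3:142572881-142572905, plus strand: tacctattatATTTAaggttaaaga
Ifi47, chr11:49096857-49096881, plus strand: gtgttcattgATTTAttattcttga
Gbp9, chr5:105078814-105078838, minus strand: catcacatttATTTAtttgcaaagt
Gbp2, whose footprints were highest in GFP–TTP-AA cells, thus held no pentamer and Gbp3, with the same order of conditions, held 2. Binding of TTP to these mRNAs was not analysed here.

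Other genes of the families had few footprints. Of 22 further GBP and IRG symbols 13 had values and 12 of these lay below 10, and the remaining gene, Irgq, an IRG-like protein, did not pass in any comparison, with log2 differences of 0.18, 0.15 and -0.03 (SE 0.22 each). Among 24 other interferon-stimulated genes with a mean of at least 10, 8 passed in GFP–TTP against GFP-only, all lower. The median of the list was -0.52, and 1.29% of all genes tested were called lower. In GFP–TTP-AA against GFP-only 2 passed, both higher (median 0.29), where 1.74% of all genes were called higher. In GFP–TTP-AA against GFP–TTP 17 passed, all higher (median 0.82), where 5.59% of all genes were called higher. This list and the pathway lists below were chosen with earlier results of these data known, so nothing is read from their counts. With the chromosome median subtracted, Dhx58 (-0.85) was gained in GFP–TTP against GFP-only, and Parp9 (0.52) was lost in GFP–TTP-AA against GFP–TTP. The RNA sensor gene Ifih1 had a level of 49.0 with GFP alone, 19.3 with GFP–TTP and 104 with the mutant, and Oasl1 had levels of 60.0, 25.8 and 148, the same order as Gbp2 and Gbp3. The log2 difference of GFP–TTP-AA against GFP–TTP was 2.52 for Oasl1, 2.42 for Ifih1, 1.61 for Xaf1, 1.52 for Oas2, 1.36 for Oas3 and 1.29 for the RNA sensor gene Ddx58, and all 6 passed. The medians of the GBP genes (1.12) and the IRG genes (0.23) lay above and below that of this list, and the difference between the lists was not tested.

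Of 19 interferon signalling genes, 6 passed in GFP–TTP-AA against GFP–TTP, all higher (median 0.33), where 5.59% of all genes were called higher. They were the transcription factor gene Irf9 (1.16), the interferon pathway inhibitor Usp18 (1.11), the interferon-β receptor genes Ifnar1 (0.72) and Ifnar2 (0.47), the kinase gene Jak2 (0.68) and the cytokine inhibitor Socs3 (0.53). Usp18 was also lower in GFP–TTP than in GFP-only cells (-1.43), and Ifnar1 was higher in GFP–TTP-AA than in GFP-only cells (0.56). Of 18 genes for loading GTPases onto vacuoles and for sensing cytosolic LPS, 2 passed in GFP–TTP-AA against GFP–TTP, both higher. They were the inflammasome adaptor gene Pycard (1.36) and Casp4 (0.64), the sensor gene downstream of GBPs. The median of the list was 0.19. Of all genes tested, 5.59% were called higher and 10.3% in either direction, and nothing about the list is read from a count of 2. Against GFP-only, Pycard (0.43) and Casp4 (0.70) were higher in GFP–TTP-AA, and Pycard was lower in GFP–TTP (-0.93). With the chromosome median subtracted, Ifnar1 (0.43), Casp4 (0.67) and Pycard (0.40) no longer passed in GFP–TTP-AA against GFP-only. In GFP–TTP-AA against GFP–TTP, Ifnar2 (0.31) was then lost and Gsdmd (0.46), of the vacuole and LPS list, was gained.

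**Figure D4:**
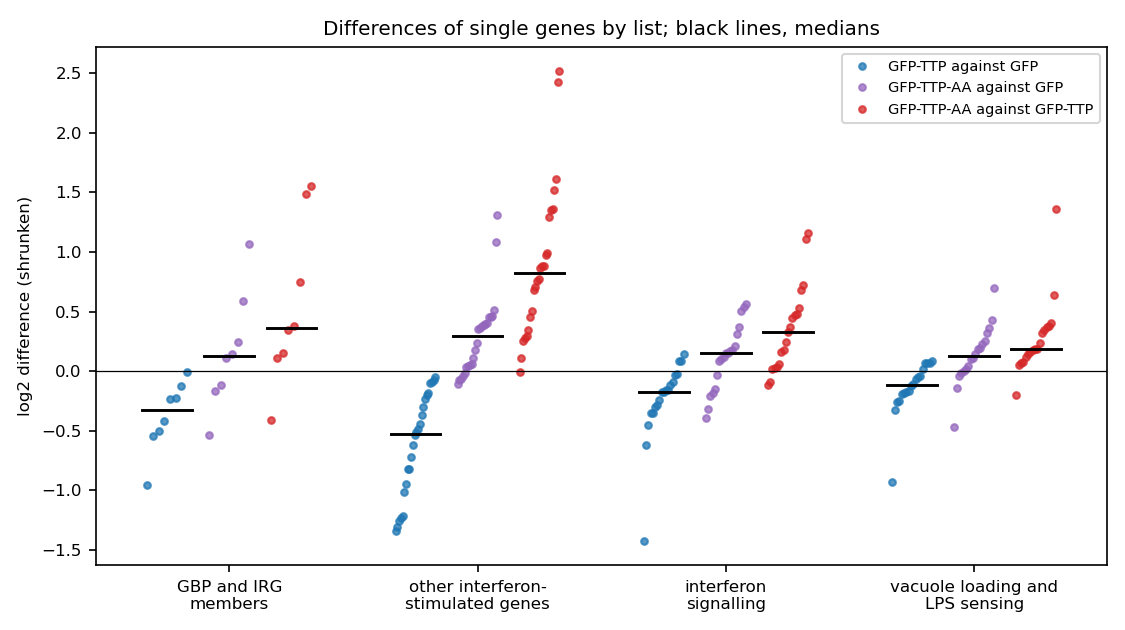
Log2 differences of single genes with a mean of at least 10 in the 3 comparisons, for the GBP and IRG members (8 genes), 24 other interferon-stimulated genes, 19 interferon signalling genes and 18 genes of vacuole loading and LPS sensing (black lines, medians). For GFP–TTP-AA against GFP–TTP the members' median is 0.36 and that of the other interferon-stimulated genes 0.82.

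The genes most like the members were sought by the Pearson correlation with the mean of the 9 genes with values, Gbp9 included. The correlation was taken over the 9 libraries, among 8432 genes with a mean of at least 50. The members' mean lay between -0.41 (GFP–TTP replicate 2) and 0.45 (GFP–TTP-AA replicate 3) around its own average on the log2 scale. The highest were Ccser2 (0.998), Parp14 (0.995), Xaf1 (0.994), Serpinb8 (0.993) and Nfkb1 (0.992), which is a description over fitted values that share libraries and hold few independent contrasts. Among them, Parp14 and Xaf1 are interferon-stimulated genes, and Nfkb1 encodes an NF-κB subunit. The size of the pattern differed, with levels of 64.5 (GFP alone), 27.5 (GFP–TTP) and 84.1 (GFP–TTP-AA) for Xaf1 and of 87.1, 79.1 and 92.0 for Ccser2. Within 1 Mb of the chromosome 3 GBP genes, the 4 other genes kept (Pkn2, Gtf2b, Pdlim5, Ccbl2) had log2 differences from -0.25 to 0.30 for GFP–TTP-AA against GFP–TTP, from -0.32 to -0.16 for GFP–TTP-AA against GFP-only and from -0.60 (Pdlim5) to 0.09 for GFP–TTP against GFP-only. In the last comparison Pdlim5 was further from 0 than Gbp2 (-0.42). Of these 0 passed in any comparison by the Wald ratio, and at an unadjusted p below 0.05 there were 2 in GFP–TTP against GFP-only, Gtf2b and Pdlim5, where 11.3% of all genes tested were below it, and 0 in the others. Of 21 other genes kept within 1 Mb of Igtp and Irgm2, 1 passed, Larp1. It was lower in GFP–TTP-AA against GFP-only (-0.52) and against GFP–TTP (-0.72), where 3.02% and 10.3% of all genes passed in either direction. Of 8 near Irgm1 and Ifi47, 0 passed in any comparison.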

How the data were processed

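RiboSeq libraries of 3 conditions with 3 replicates each were analysed, grouped by the sample labels. The authors prepared footprint libraries with the ARTseq kit, mapped the reads to mm10 (GRCm38) keeping up to 2 alignments per read, and fitted DESeq2 with terms for library date and condition. The authors' processing notes list Trim Galore, TopHat2 (2.0.12, whereas the study's methods name an earlier version), HTSeq and DESeq2 (1.6.3). The deposited signal is the authors' fitted value per gene and library. The deposited comparison tables hold a signal (mean normalised count) and a score (the standard error of the authors' shrunken log2 fold change). Their fold changes and p-values were not used.

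Size factors (0.417 to 2.13) were derived by the median of ratios, and log2 differences are those of mean log2 values between conditions. The ratio to the standard error was taken as normal (two-sided), and p-values were adjusted by the Benjamini-Hochberg method over genes with a mean level of at least 10 (10099, of which 9938 have a standard error in GFP–TTP against GFP), with a threshold of 0.05. The procedure was tested on simulated data. Depth per library is known only through the fitted sums. The p-values rest on the standard error of the authors' shrunken fit to these libraries, since the fitted values hold no replicate scatter. Positions, coding lengths (transcript with the longest coding sequence) and 3′UTRs are from GENCODE vM21, promoters from RefSeq, and 35 of 35 printed or searched stretches were identical on the GRCm38 genome.

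The members and all gene lists were chosen with earlier results of these data known. Named were all members, Zfp36, tested genes of the list of other GBP and IRG genes, from each other list at most 6 genes past the threshold with the largest difference, and the 5 genes most correlated with the members. Ifnb1 and the neighbours were named after their values were seen. Alternatives were no minimum level, a minimum of 50, joint adjustment of the comparisons, scaling by the sum, the chromosome median subtracted and a pseudocount of 10. Python 3.11.15, numpy 2.4.6, pandas 2.3.3 and scipy 1.17.1 were used.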

Additional observations from a re-analysis of the deposited data

How the results depend on the processing

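No paired analysis was possible because the deposited values are fitted and hold no observed counts, and for the same reason no replicate could be left out. The 15 recomputed counts of members past the threshold stayed within 1.5 times the reported ones apart from GFP–TTP against GFP-only with the chromosome median subtracted, where 0 members passed in place of 1 by the Wald ratio (2, Gbp3 and Igtp, at an unadjusted p below 0.05, as were 11.3% of all genes without the subtraction). In GFP–TTP-AA against GFP–TTP, Gbp2 and Gbp3 passed in all 6 settings, and Gbp7 was lost with a minimum of 50, with joint adjustment and with the chromosome median subtracted. Gbp2 passed in all 6 settings of GFP–TTP-AA against GFP-only. With the chromosome median subtracted, 2 in place of 5 genes of the pathway lists passed in GFP–TTP-AA against GFP-only, with Ifnar1, Casp4 and Pycard lost. The 9 recomputed medians of the members moved by less than the median standard error. Of 72 recomputed differences of single members 1 changed sign, that of the gene named Gbp5 in GFP–TTP against GFP-only, from -0.01 to 0.17 with the chromosome median subtracted. With a pseudocount of 10, GFP–TTP-AA against GFP–TTP was 1.28 for Gbp3 and 0.49 for Gbp7. Why these values moved was not tested. Low levels limit Gbp5, Gbp9 and Irgm2, and shrinkage pulls their differences towards 0. The differences and folds of the other members, Gbp2 and Gbp3 included, come from the same shrunken fit.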
